A study of Homo sapiens with 6 samples.

Results

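The enzymes that make, salvage and balance the building blocks of DNA were followed as 9 genes, RRM1, RRM2, TYMS, TK1, TK2, DCK, DUT, DCTD and CAD. They were taken by their symbols from a table of 58219 genes, each symbol had 1 row, and all 9 passed the filter on low values. The libraries come from IMR90 cells, diploid human lung fibroblasts, that express ER-RAS, a fusion of the oncogenic RAS allele G12V with the oestrogen receptor that 4-hydroxytamoxifen (4OHT) switches on. One group of 3 libraries, named committed in the labels, received 100 nM 4OHT for 72 h (3 days). The other group of 3, named uncommitted controls, received the same dose for 30 h by the protocols and the column names. The sample titles give 1.5 days instead, and 30 h is used here. Both groups carry ER-RAS and received 4OHT, and the libraries include no untreated cells and no uncommitted cells at 72 h, so commitment and time cannot be told apart.

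A cell that copies its genome needs each of the deoxynucleoside triphosphates (dNTPs) in balanced amounts. Ribonucleotide reductase turns ribonucleotides into deoxyribonucleotides and is the main source of dNTPs in dividing cells. Thymidylate synthase and thymidine kinase supply the thymidine nucleotide by separate routes, one by new synthesis and one by salvage. Many of these genes are transcribed mainly around S phase, while a second set of kinases keeps up a small pool for mitochondrial DNA in resting cells. A fall of nucleotide pools is known from fibroblasts that enter senescence under oncogenic RAS.

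The libraries held between 13221152 and 15703544 reads in genes. All 10 fibroblast markers on the list used to check the cell type were expressed. Their summed level was 61769 to 71129 normalised counts at 72 h and 173900 to 184018 at 30 h. At 72 h 6 of them were lower and 1 higher, against 25.0% and 23.6% of all tested genes. The immune markers summed to 10.2 to 15.7 at 72 h and 8.13 to 15.8 at 30 h, with CD3E at 0 reads, and the endothelial marker CDH5 was also at 0. Of the endothelial sum of 410.1 to 493 at 72 h and 669.7 to 933 at 30 h, most was TEK. The epithelial sum, at 642 to 761 in 72 h libraries, was 734 to 845 in 30 h libraries, most of it KRT18, and of 3 of 6 tested CLDN4 was higher, KRT18 lower and KRT8 not called at 72 h. The part of these shifts in the results was not tested. The second principal component, with 6.99% of the variance, separated both letter C libraries.

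At 72 h, 6 of the 9 enzymes fell, 1 rose and 2 did not pass the test. The fall was steepest for TK1, at 3.17-fold, followed by TYMS at 2.24-fold, RRM2 at 1.90-fold, RRM1 at 1.85-fold, DCK at 1.64-fold and DUT at 1.54-fold. TK2, the mitochondrial thymidine kinase, rose 1.35-fold. Calls were made with limma on the log2 of the normalised count plus 1, fitted over 13315 genes, at a Benjamini-Hochberg adjusted p under 0.05. By the same rule 25.0% of all tested genes were lower, 23.6% were higher and 48.6% were called in either direction, against 66.7% of the 9 enzymes lower and 77.8% called. The median log2 fold change was -0.71 over the 9 and 0.01 over all tested genes. In 7 of the 9 the groups did not overlap, 6 of them lower and 1 higher, and of all tested genes 59.2% did not overlap, with 29.9% lower and 29.3% higher. By edgeR's quasi-likelihood test 6 of the 9 were also lower and 1 higher, against 25.0% and 23.7% of all genes (48.8% in either direction). By the authors' deposited table, again 6 were lower and 1 higher, against 16.9% and 15.4% of the genes with an adjusted p (32.3% in either direction). Without both libraries of letter C, 7 of the 9 were lower, CAD being added, and 1 was higher, against 27.2% and 26.0% of all tested genes (53.2% in either direction). In bulk RNA, fewer cells that express a gene and less RNA of it per cell cannot be told apart.

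**Figure D1:**
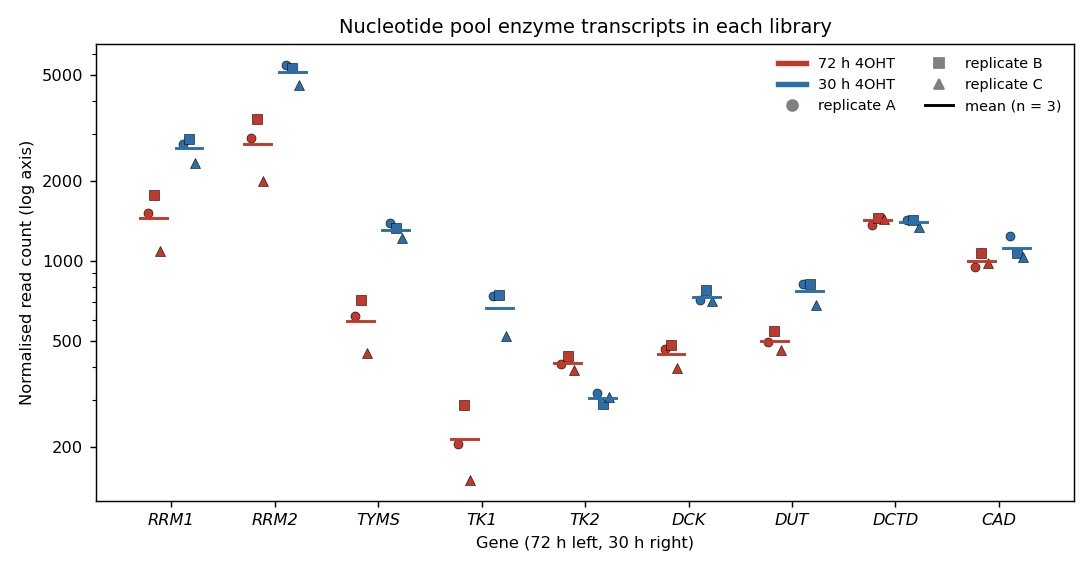
Normalised read counts (log axis) of the 9 enzymes in each library, 72 h in red on the left and 30 h in blue on the right, with replicates as symbols and means as bars (n = 3). For RRM1, RRM2, TYMS, TK1, DCK and DUT every library of 72 h lies below every library of 30 h, for TK2 every library of 72 h lies above, and for DCTD and CAD the groups overlap.

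The subunits of ribonucleotide reductase fell together. RRM1 encodes the large subunit, which holds the catalytic and regulatory sites (ENSG00000167325.14, GRCh38 chromosome 11, 4094707 to 4138876). It had 1508, 1767 and 1087 normalised counts in the 72 h libraries A, B and C, against 2753, 2862 and 2337 in the 30 h libraries. The groups did not overlap, and library C was the lowest of its group at both times. The means were 1454 ± 343 at 72 h and 2651 ± 277 at 30 h (SD, n = 3 each), which is -0.89 ± 0.190 (SE) on the log2 scale, with limma adjusted p = 0.0107. RRM2 encodes the small subunit, which carries the radical and is rate-limiting in S phase (chromosome 2, 10122328 to 10131419). It had 2886, 3404 and 1989.8 normalised counts at 72 h, against 5461, 5319 and 4595 at 30 h. These groups also stood apart, with the same order of libraries within 72 h as for RRM1. The means were 2759.9 ± 715 at 72 h and 5125 ± 465 at 30 h, or -0.92 ± 0.208 (SE) in log2 terms, at an adjusted p = 0.0144. Both calls were lost when no filter on low values was applied, with adjusted p = 0.0622 for RRM1 and 0.0694 for RRM2.

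The balance of the subunits within a library was much the same at both times. The log2 level of RRM2 minus that of RRM1 was 0.94, 0.95 and 0.87 at 72 h and 0.99, 0.89 and 0.98 at 30 h, so the groups overlapped. The difference between the groups was -0.03, and it ran from -0.06 to -0.01 when each library was left out in turn (exact permutation p = 0.4). RRM2B, the small subunit that p53 induces and that serves DNA repair and mitochondrial DNA in cells outside S phase, went the other way. It had 1512, 1621 and 1292 normalised counts at 72 h and 937, 1050.5 and 953 at 30 h, with a log2 fold change of 0.58 ± 0.0862 (SE) and limma adjusted p = 0.000453. RRM2 minus RRM2B was 0.93, 1.07 and 0.62 at 72 h and 2.54, 2.34 and 2.27 at 30 h. That difference between the groups was -1.51, with no overlap. The exact two-sided permutation p was 0.1, the smallest that 3 against 3 libraries can give, so no pair of genes could reach 0.05. Of the 5 pairs given here, 4 had p = 0.1 (adjusted p = 0.12 by exact permutation, over the 6 pairs tested).

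**Figure D2:**
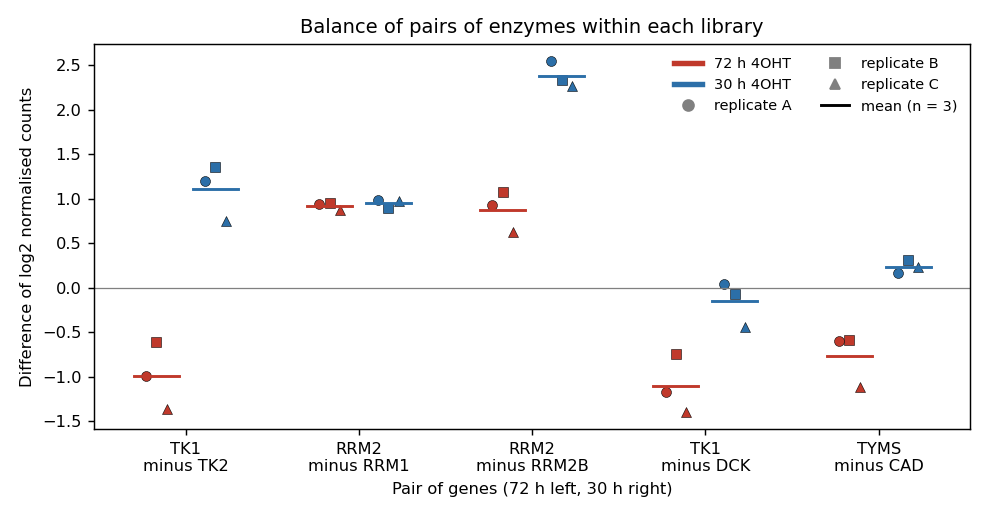
Difference of log2 normalised counts between the genes of each pair in every library, 72 h in red on the left and 30 h in blue on the right, with means as bars (n = 3). TK1 minus TK2 is below 0 in every 72 h library and above 0 in every 30 h library, while RRM2 minus RRM1 lies between 0.87 and 0.99 in all 6.

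Of the 9, TK1 and TYMS, which make thymidylate by salvage and by new synthesis, had the largest falls, while DUT and DCTD, which feed TYMS, fell less or did not pass the test. TYMS encodes thymidylate synthase, which methylates dUMP to dTMP and is the target of fluorouracil (ENSG00000176890.15, chromosome 18, 657604 to 673578). It had 622, 711 and 451 normalised counts at 72 h, against 1390.1, 1326 and 1214 at 30 h. Its highest library at 72 h was below its lowest at 30 h. The means were 595 ± 132 at 72 h and 1309.9 ± 89.2 at 30 h, for a log2 fold change of -1.16 ± 0.164 (SE) and limma adjusted p = 0.00138. In GENCODE 29, 39.1% of the exon bases of TYMS are also exons of ENOSF1 on the opposite strand. ENOSF1, looked at after its value was seen, averaged 457 ± 29.6 normalised counts at 72 h and 159 ± 33.3 at 30 h, a log2 fold change of 1.54. Whether strand was used in the counting is not stated, so the split of reads between TYMS and ENOSF1 is uncertain.

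TK1 encodes the cytosolic thymidine kinase, made in S phase and removed in mitosis (chromosome 17, 78174075 to 78187233). It had 205, 287 and 150.0 normalised counts at 72 h, against 736, 743 and 519.9 at 30 h. Library C was the lowest at both times, and its 30 h value was still above every 72 h value. The log2 fold change was -1.66 ± 0.266 (SE), with limma adjusted p = 0.00335. DUT encodes dUTPase, which makes dUMP for TYMS and keeps uracil out of DNA (chromosome 15, 48331011 to 48343373). It had 494, 543 and 463 at 72 h and 818, 818 and 682 at 30 h, with a log2 fold change of -0.63 ± 0.0912 (SE) and adjusted p = 0.000397. Its groups did not overlap. DCTD encodes dCMP deaminase, the other source of dUMP (chromosome 4, 182890060 to 182917936). It had 1366, 1453 and 1441 normalised counts at 72 h and 1420.3, 1423 and 1339 at 30 h, and the groups overlapped. The means were 1420.0 ± 46.9 at 72 h and 1394 ± 47.7 at 30 h, and the 95% interval of the log2 fold change ran from -0.10 to 0.15 (adjusted p = 0.721). The same interval for DUT ran from -0.83 to -0.42.

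Downstream of TYMS and TK1, DTYMK encodes thymidylate kinase, which both routes need. It averaged 445 ± 76.1 normalised counts at 72 h and 785 ± 90.6 at 30 h, with a log2 fold change of -0.82 (limma adjusted p = 0.00186).

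The salvage kinases went in both directions. TK2 encodes the thymidine kinase of mitochondria, which also phosphorylates deoxycytidine (chromosome 16, 66508003 to 66552544). It had 409.8, 439 and 389 normalised counts at 72 h, against 319.7, 289 and 308 at 30 h. Each 72 h library was above each 30 h library. The means were 412.5 ± 24.8 at 72 h and 305 ± 15.8 at 30 h, for a log2 fold change of 0.43 ± 0.0816 (SE) and limma adjusted p = 0.0018. TK1 minus TK2 averaged -0.99 ± 0.379 at 72 h and 1.10 ± 0.315 at 30 h, so the gene with more reads was TK2 in each 72 h library and TK1 in each 30 h library. The difference between the groups was -2.10, and -2.29 to -1.91 with each library left out. Per kilobase of exon TK1 stayed above TK2 at both times, as given below with the levels.

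DCK encodes deoxycytidine kinase, which salvages deoxycytidine and the purine deoxynucleosides in the cytosol and nucleus and activates cytarabine and gemcitabine (chromosome 4, 70992538 to 71030914). It had 466, 481 and 396 normalised counts at 72 h, against 714, 779 and 706 at 30 h. The groups stood well apart, and the log2 fold change was -0.71 ± 0.0862 (SE) with limma adjusted p = 0.00013, the smallest adjusted p of the 9. TK1 fell further than DCK, with a TK1 minus DCK value of -1.11 ± 0.332 at 72 h and -0.15 ± 0.253 at 30 h. DGUOK encodes deoxyguanosine kinase, the mitochondrial kinase for purines, and did not rise with TK2. It had 547, 548 and 572 normalised counts at 72 h and 605, 615 and 668 at 30 h, with a log2 fold change of -0.18 and adjusted p = 0.0483. That call was lost in 12 of 18 alternatives, among them the authors' deposited table, which gave adjusted p = 0.172.

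CAD encodes the protein that carries the first steps of pyrimidine synthesis, carbamoyl phosphate synthetase, aspartate transcarbamylase and dihydroorotase (chromosome 2, 27217390 to 27243943). It had 946, 1069.9 and 981 normalised counts at 72 h and 1240.0, 1068 and 1035 at 30 h. The groups overlapped through 72 h library B. The means were 999 ± 63.8 at 72 h and 1114 ± 110.3 at 30 h, and the 95% interval of the log2 fold change ran from -0.33 to 0.02 (limma adjusted p = 0.137). Without both libraries of letter C, an alternative chosen after the data were seen, CAD passed the test at -0.19 with adjusted p = 0.0483. TYMS minus CAD was -0.77 ± 0.302 at 72 h and 0.24 ± 0.0738 at 30 h.

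**Figure D3:**
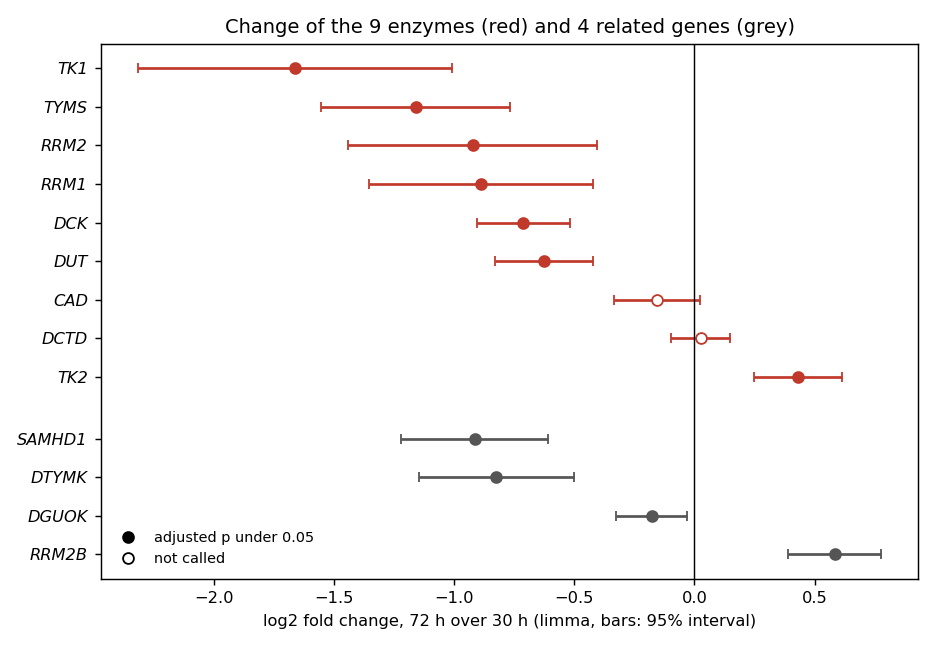
Log2 fold change of 72 h over 30 h with its 95% interval from limma for the 9 enzymes (red) and 4 related genes (grey). Filled points passed an adjusted p of 0.05. TK1 lies lowest at -1.66, TK2 and RRM2B lie above 0 at 0.43 and 0.58, and the intervals of CAD and DCTD cross 0.

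Levels can be compared between genes once divided by the exon length of GENCODE 29. At 72 h RRM2 averaged 518 ± 134 normalised counts per kilobase, DCTD 409.7 ± 13.5, RRM1 348 ± 82.2, TYMS 241 ± 53.4, DCK 139 ± 14.0, DUT 136 ± 11.1, CAD 119 ± 7.57, TK1 115 ± 37.0 and TK2 57.5 ± 3.46. At 30 h the order was RRM2 at 963 ± 87.3, RRM1 at 635 ± 66.3, TYMS at 530.3 ± 36.1, DCTD at 402 ± 13.8, TK1 at 358 ± 68.1, DCK at 227 ± 12.5, DUT at 210.3 ± 21.3, CAD at 132 ± 13.1 and TK2 at 42.6 ± 2.198. In rank DCTD was thus above RRM1 and TYMS at 72 h but below them at 30 h, and TK1 was below DCK, DUT and CAD at 72 h but above them at 30 h. At 72 h the libraries of neighbours in this order overlapped except between TYMS and DCK and between TK1 and TK2. At 30 h they overlapped for RRM1 with TYMS, DCTD with TK1, and DCK with DUT. The exon union counts every annotated exon, retained introns included, so levels per kilobase, and the orders drawn from them, depend on which transcripts are in use, which was not tested.

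Markers of proliferation moved beside the enzymes. Of 20 listed genes of S phase and proliferation, 17 fell, 0 rose and 3 (MCM4, POLE and CDK1) did not pass. Their median log2 fold change was -0.85. By the same limma rule 25.0% of all tested genes fell and 23.6% rose. In 19 of the 20 the groups did not overlap, against 59.2% of all tested genes (29.9% lower and 29.3% higher). The summed level of the 20 was 11028 to 18250 normalised counts at 72 h and 25779 to 30571 at 30 h. By edgeR's quasi-likelihood test on the whole reads, 17 were again lower and 0 higher, against 25.0% and 23.7% of all tested genes. BUB1, a spindle checkpoint kinase, fell 2.83-fold, MKI67, the gene of Ki-67, 2.72-fold, and CCNA2 and CCNB1, the cyclins of S phase and mitosis, 2.64-fold and 2.49-fold. The call of BUB1 was lost in 2 of 18 alternatives, without a filter on low values (adjusted p = 0.0638) and without 30 h replicate C (0.0518). That of CCNB1 was lost in 3 of 18, without a filter (limma adjusted p = 0.0695), without 30 h replicate B (0.0539) and without 30 h replicate C (0.0543). The mean log2 level of the 20 markers was 9.20, 9.34 and 8.69 in the 72 h libraries A, B and C, and 10.00, 9.98 and 9.80 at 30 h. Library C was thus the lowest at both times, as it was for 7 of the 9 enzymes at 72 h and 8 of the 9 at 30 h. The 72 h library B was the highest for all 9, TK2, DCTD and CAD included. How often all tested genes show these orders of libraries was not counted. The part of proliferation in the falls was not tested.

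Set against that mean within the same library, the subunits of ribonucleotide reductase differed least between the times. RRM1 minus the marker mean was 1.40 at 72 h and 1.44 at 30 h on the log2 scale, and RRM2 minus the marker mean was 2.32 at 72 h and 2.39 at 30 h. Single markers changed by -1.50 to -0.25 on the log2 scale. That range holds the falls of RRM1, RRM2, TYMS, DCK and DUT but not that of TK1. TYMS fell by 0.31 and TK1 by 0.82 more than the marker mean did. DCK and DUT fell less than that mean, with differences of 0.14 and 0.22. CAD, DCTD and TK2 gained 0.69, 0.87 and 1.28 on the marker mean. These differences are descriptions with no test.

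**Figure D4:**
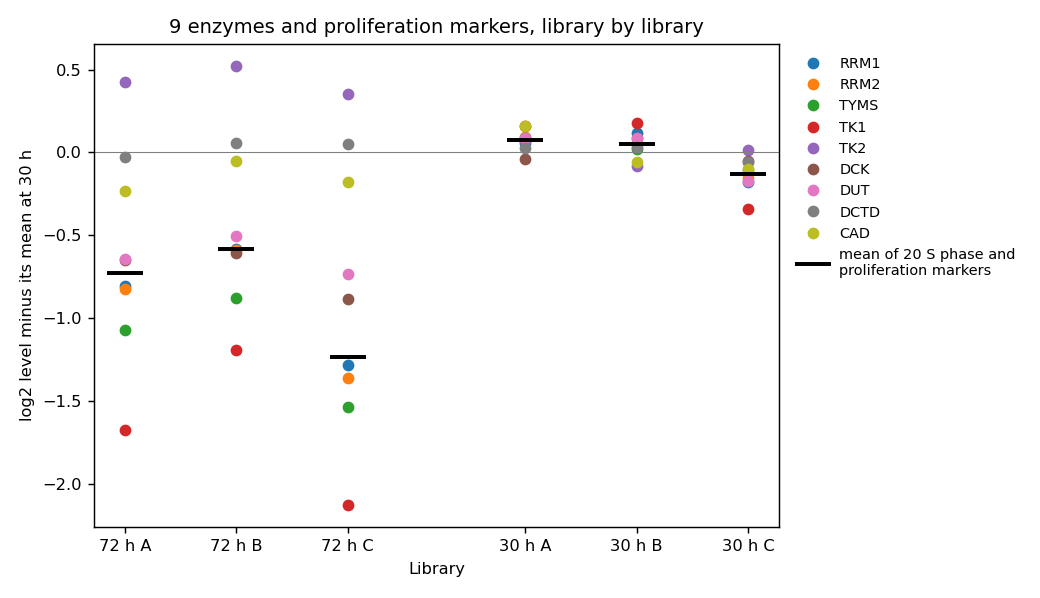
Log2 level of each enzyme minus its mean at 30 h, in the 72 h libraries (left) and the 30 h libraries (right). Black bars give the mean of 20 S phase and proliferation markers. RRM1 and RRM2 sit close to the bars in all 6 libraries, TYMS and TK1 lie under them at 72 h, and TK2, DCTD and CAD lie above.

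The promoters of the enzymes are shown because 6 of them fell together. Windows from 250 bases before to 50 after each annotated start, from RefSeq on GRCh38.p14, gave 15 windows for the 9 genes. They were searched on both strands for the E2F words TTTCCCGC, TTTCGCGC, TTTGCCGC and TTTGGCGC, the NF-Y word CCAAT, the cell cycle homology word TTTGAA and the SP1 word GGGCGG. E2F words were in 3 windows, 1 each of TYMS, DCK and DUT, against 3.31% of all 35116 windows. CCAAT was in 5 windows, of RRM1, RRM2, TK1 and CAD, against 34.6% of all. TTTGAA was in 2 windows, of RRM1 and DUT, against 15.2%, and GGGCGG in 11, of 7 genes, against 45.0%. Windows of the same gene overlap for RRM2, TK1, DUT and DCTD, and for TK1, DUT and DCTD some GGGCGG sites are therefore counted in more than 1 window. No matches overlapped each other within a window of the 9 genes, and the single TK2 window held none of these words. A match is a description of letters and not a bound site. The windows printed are chr2:10122489-10122788 (plus strand) for RRM2, chr17:78187003-78187302 (minus strand) for TK1, chr15:48331947-48332246 (plus strand) for DUT and chr16:66550073-66550372 (minus strand) for TK2. Capitals mark the E2F, CCAAT and TTTGAA words on either strand.
RRM2: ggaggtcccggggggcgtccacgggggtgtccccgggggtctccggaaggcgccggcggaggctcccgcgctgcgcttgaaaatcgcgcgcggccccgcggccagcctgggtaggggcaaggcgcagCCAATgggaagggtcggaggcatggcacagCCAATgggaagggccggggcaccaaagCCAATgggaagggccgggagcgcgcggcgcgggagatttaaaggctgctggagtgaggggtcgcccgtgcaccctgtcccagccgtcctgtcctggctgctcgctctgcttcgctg
TK1: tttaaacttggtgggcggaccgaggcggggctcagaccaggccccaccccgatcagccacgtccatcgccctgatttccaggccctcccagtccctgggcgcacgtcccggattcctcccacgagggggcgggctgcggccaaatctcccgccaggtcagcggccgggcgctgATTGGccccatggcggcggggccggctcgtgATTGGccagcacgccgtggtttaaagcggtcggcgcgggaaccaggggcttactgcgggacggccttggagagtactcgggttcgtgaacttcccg
DUT: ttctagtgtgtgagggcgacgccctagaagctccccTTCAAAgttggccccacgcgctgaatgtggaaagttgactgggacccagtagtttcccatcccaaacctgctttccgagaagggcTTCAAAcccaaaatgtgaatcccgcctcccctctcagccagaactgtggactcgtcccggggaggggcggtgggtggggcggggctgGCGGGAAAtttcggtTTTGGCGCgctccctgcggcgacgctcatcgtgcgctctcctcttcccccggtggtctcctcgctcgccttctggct
TK2: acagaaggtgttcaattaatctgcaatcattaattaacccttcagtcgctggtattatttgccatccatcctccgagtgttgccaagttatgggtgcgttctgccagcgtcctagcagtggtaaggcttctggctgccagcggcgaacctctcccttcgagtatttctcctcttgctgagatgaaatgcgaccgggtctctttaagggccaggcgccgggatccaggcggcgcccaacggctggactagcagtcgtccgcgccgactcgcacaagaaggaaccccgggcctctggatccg
In the printed windows RRM2 thus shows its CCAAT words in 1 orientation and TK1 the same word inverted. DUT shows a pair of E2F words in opposite orientations. The windows of TK1 and DUT that are not printed, and those of DCTD, held none of the marked words. The window of CAD, which was not called, held CCAAT.

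Close matches to 4 of the enzymes were sought among 10520 other genes, as the smallest root mean square difference between log2 levels centred over the 6 libraries. Closest to RRM2 were RRM1 at 0.0412, FANCI at 0.0432 and MGLL at 0.0476. Closest to TK1 were CCNB2 at 0.0520, TRIM59 at 0.0979 and NAALADL2 at 0.101. TK2 was nearest to GEMIN8 at 0.0380, COX5B at 0.0394 and ZNF316 at 0.0398, and CAD to LTBP2 at 0.0188, SNHG6 at 0.0285 and MED22 at 0.0316. The gene nearest to RRM2 by this measure was thus its partner subunit.

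The rest of nucleotide metabolism went in both directions, as did all tested genes, of which 23.6% rose and 25.0% fell by limma. Of 13 genes of purine synthesis, 3 rose, 3 fell and 7 did not pass, which is near those shares. The median log2 fold change was -0.02. PFAS, PRPS1 and GART, enzymes of inosine monophosphate synthesis and its sugar donor, fell 1.56-fold, 1.51-fold and 1.32-fold. ADSS, which starts the branch to adenine nucleotides, had 1809.7, 1746 and 2060.1 normalised counts at 72 h, against 1152, 1076 and 1238 at 30 h, and rose with limma adjusted p = 7.25e-05. Of 4 genes of pyrimidine synthesis beyond CAD, 1 fell, 0 rose and 3 did not pass. The one that fell was CTPS2, a CTP synthase, with 197 ± 15.2 normalised counts at 72 h and 327 ± 22.5 at 30 h.

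Of 12 genes of the thymidylate and one-carbon cycle, 1 rose, 5 fell and 6 did not pass, with a median log2 fold change of -0.14. Over all tested genes 23.6% rose and 25.0% fell. GGH, which trims folate polyglutamates, had the largest fall, to 343, 385 and 254 normalised counts at 72 h, against 986, 971 and 800.4 at 30 h. SHMT1, the cytosolic serine hydroxymethyltransferase, fell 1.80-fold. MTHFD2L, a mitochondrial folate enzyme, was the gene that rose, to 272 ± 28.9 at 72 h, against 144 ± 30.0 at 30 h. The GGH fall was larger than that of any of the 9 enzymes but TK1.

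Of 14 nucleotide kinases tested, 5 rose, 4 fell and 5 did not pass, against 23.6% higher and 25.0% lower over all tested genes. AK4, a mitochondrial adenylate kinase that hypoxia induces, rose 10.7-fold to 119, 98.5 and 227 normalised counts at 72 h, against 14.6, 11.2 and 10.5 at 30 h. NME3, a nucleoside diphosphate kinase, rose 1.67-fold and AK1, the cytosolic adenylate kinase, 1.48-fold. AK1 shares 33.5% of its exon bases with another annotated gene on the same strand that averaged 1.26 normalised counts at 72 h and 1.38 at 30 h. The fall of DTYMK, given above, was the largest in this list.

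Among genes that break down or clean nucleotides, 7 of 13 tested fell, 1 rose and 5 did not pass. By the same rule 25.0% of all tested genes fell and 23.6% rose. SAMHD1, the triphosphohydrolase that destroys dNTPs in resting cells, had 459, 466 and 324 normalised counts at 72 h, against 759, 761 and 807 at 30 h. Its groups did not overlap, and its log2 fold change of -0.92 ± 0.133 (SE) had limma adjusted p = 0.000766. DPYD, which degrades pyrimidines, fell 2.67-fold, NUDT1, which clears oxidised purine nucleotides, 2.27-fold, and DCTPP1, a dCTP pyrophosphatase, 1.67-fold. DCTPP1 shares 42.1% of its exon bases with ZNF771 on the opposite strand. NUDT16, the one that rose, was 1.15-fold higher with adjusted p = 0.0384, a call lost in 10 of 18 alternatives.

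Of 15 listed genes of nucleoside salvage and transport, 13 were tested, and 3 rose, 3 fell and 7 did not pass. These counts are near the shares of all tested genes, 23.6% higher and 25.0% lower. PNP and UPP1, the purine and uridine phosphorylases, rose 1.64-fold and 1.52-fold. ADK, adenosine kinase, fell to 604 ± 75.1 normalised counts at 72 h, against 1006 ± 146 at 30 h. UCK2, a uridine and cytidine kinase, fell 1.26-fold, a call lost in 4 of 18 alternatives.

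**Figure D5:**
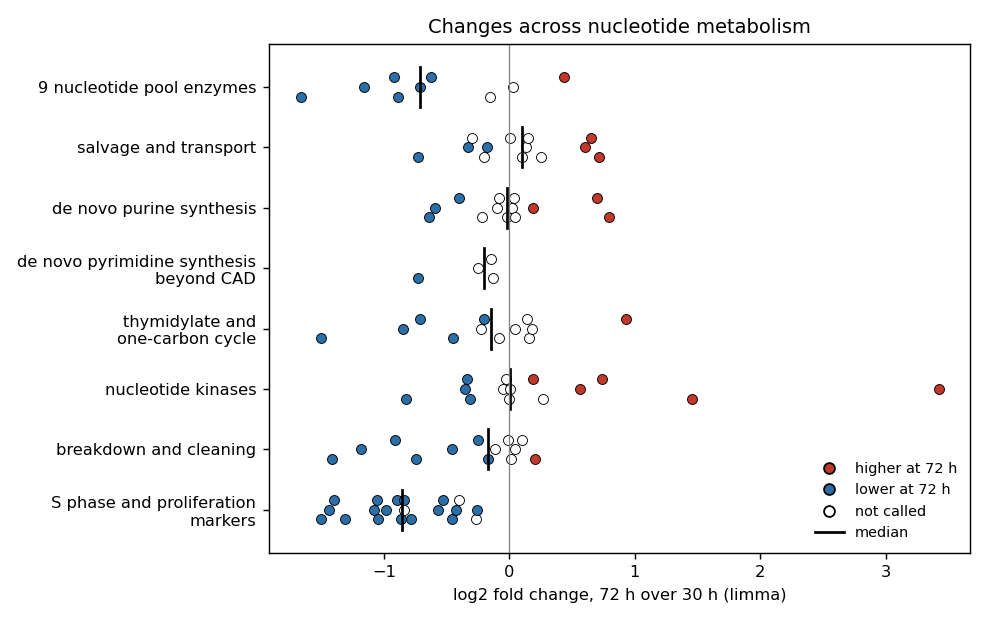
Log2 fold change of 72 h over 30 h for each tested gene of the 9 enzymes and of 7 lists of related genes, with blue for lower, red for higher and white for not called. Black bars are medians, which lie at -0.71 for the 9 enzymes and -0.85 for the proliferation markers and between -0.20 and 0.10 for the other lists.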

How the data were processed

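RNA was measured in 6 libraries of IMR90 ER-RAS cells, 3 at 72 h and 3 at 30 h of 4OHT. Per the submitters' processing notes, Trimmomatic 0.35, STAR 2.5.1b and DESeq2 1.18.1 were used, on build GRCh38 (hg38). The sources used here do not give the read counter, its annotation or its use of strand. The deposited table gives 1 signal value per gene and library, made by the authors by dividing read counts by size factors. In each library 100% of values were whole multiples, within 0.01, of the lowest non-zero value, and whole reads were recovered from this step. Per the file headers, further columns are the authors' log2 fold change, its score (a Wald statistic) and its p-value, raw and adjusted, used only as an alternative and where that table is named.

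The 13315 genes that reached 10 normalised counts in 3 or more libraries were tested by limma 3.58.1 (R 4.3.3, robust, with a trend) on log2(value + 1), at a Benjamini-Hochberg adjusted p under 0.05. On the recovered whole reads edgeR 4.0.16 called 6493 genes, against 6472 by limma, and DESeq2 1.42.0 was a further alternative. The limma and edgeR fits, and no other step, were also run on simulated counts with far fewer changed genes than were called here. No result is drawn from that run. Folds and log2 fold changes are those of the fit and are 72 h over 30 h. Pairs of genes were compared with exact two-sided permutation tests. No label says that replicates are separate cultures, and the p-values then measure only a spread that may be technical. Replicates differed by more than sampling noise (chi-square of 3.29 to 16.3 per degree of freedom). Same-lettered libraries were not treated as pairs in the main fit. Their deviations correlated at 0.00696 for A, 0.172 for B and 0.185 for C. Libraries of unlike letters correlated at -0.212 to 0.0956. Deviations from a group mean are tied to each other, so these correlations are not independent. Some variation may be shared by letter, which was not tested.

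The 9 genes and all lists were chosen with earlier results of these data known. The text names the 9, RRM2B, SAMHD1, DTYMK and DGUOK, the largest changes among called genes of each list (up to 4, with a mean of 50 or more in one group), and any 3 or fewer that moved against most called genes of a list. One gene that this rule names, and its pair, are not reported here. For RRM2, TK1, TK2 and CAD it also names the 3 genes with the most similar pattern and a mean of at least 50. Coordinates are those of the deposited table. Exon lengths and overlaps are from GENCODE 29, in which the coordinates of RRM2 differ from the table and those of the other 8 are the same. Annotated pseudogene copies of RRM2, TYMS and DUT together held at most 8.44, 0 and 2.10 normalised counts in a library. Alternatives are given in the closing section.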

Additional observations from a re-analysis of the deposited data

How the results depend on the processing

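For 18 alternatives the calls of TYMS, TK1, TK2, DCK and DUT held each time, with adjusted p at most 0.0152. The falls of RRM1 and RRM2 kept their size without a filter on low values (log2 fold change -0.89 and -0.92) but missed the threshold, at adjusted p = 0.0622 and 0.0694. That setting moved limma adjusted p both ways. It was 1.90e-27 for TYMS and 1.70e-14 for DCK, against 0.00138 and 0.00013 in the main fit. For TK1 it was 0.0152, against 0.00335. The cause was not tested. CAD passed without both libraries of letter C at -0.19 (adjusted p = 0.0483, 0.0483 to 0.465 over the alternatives). DCTD, not called, had a value of 0.03 that was -0.0133 without both C libraries and ran from -0.0023 (without 30 h replicate C) to 0.054 (without 72 h replicate A) with each library left out. All genes called numbered 3144 higher and 3328 lower, and 2529 to 3174 and 2689 to 3295 with each library left out. With the replicate letter as a block 3271 genes were higher and 3452 lower, the 9 enzymes again split into 1 higher and 6 lower, and each kept its side of the threshold. Library C at 30 h correlated best with C at 72 h, B with B, and A at 30 h with B. Quantile normalisation gave 3501 higher and 3095 lower, and moved the median of all genes by 0.02. Among related genes named in the text, 31 calls were lost under an alternative (those of DGUOK, NUDT16, UCK2, BUB1 and CCNB1) and 0 changed direction. Each of the 9 enzymes had at least 143 reads in every library, and genes of few reads such as AK4, with 10 to 15 at 30 h, have folds that the added 1 shrinks.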

Other observations

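The epithelial keratin gene KRT19, a marker on the list used to check the cell type, differed by replicate letter and not by time. It had 1.02, 34.9 and 1.05 normalised counts in the 72 h libraries A, B and C, and 4.87, 43.7 and 1.05 in the 30 h libraries. The epithelial markers EPCAM and CDH1 had 3.90 to 10.2 and 0 to 0.872 normalised counts over the 6 libraries. These values were looked at after the data were seen and were not tested.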
